A study of Mus musculus with 4 samples.

Results

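The guanylate-binding proteins (GBPs) and the immunity-related GTPases (IRGs) are 2 families of interferon-inducible GTPases, and 10 of their genes were followed here. They were taken by symbol from a table of 55401 genes: the GBP genes Gbp2, Gbp3, Gbp5, Gbp7 and Gbp9, and the IRG genes Irgm1, Irgm2, Igtp, Ifi47 and Iigp1. All 10 were in the table, and all 10 had enough counts to be tested among 17260 genes. Poly(A) RNA was sequenced from bone marrow-derived macrophages of C57BL/6 mice of 8 weeks, grown with M-CSF and then co-cultured for 24 h with the mouse colon carcinoma line MC38. The 2 control libraries, numbered 1 and 3, came from mice with the genotype Mettl3fl/fl. The 2 knockout libraries, also numbered 1 and 3, came from mice with the genotype LysM-cre, Mettl3fl/fl, so the floxed alleles were common to both groups and the controls carried no Cre. Mettl3 encodes the catalytic subunit of the enzyme complex that writes N6-methyladenosine on mRNA, and the LysM promoter is active in myeloid cells. GEO describes the libraries as biological replicates without saying what equal numbers share, nor whether the tumour cells were removed before RNA was extracted.

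GBPs and IRGs are cytosolic defence proteins that macrophages make in large amounts after interferon, above all interferon gamma. Interferon gamma acts through GAS elements in promoters, and type I interferon mainly through ISGF3 at interferon-stimulated response elements (ISREs), which IRF1 can also bind. The proteins assemble on vacuoles and bacteria that have entered the cell, disrupt them and open their contents to inflammasome sensors. Among IRGs, the GMS proteins Irgm1, Irgm2 and Igtp (also called Irgm3) hold the others inactive on the cell's own membranes, while GKS proteins such as Ifi47 (Irgd) and Iigp1 (Irga6) act on the vacuole.

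The promoters of the members are shown first, as a description of the sequence around their start sites. Whether the matches relate to the differences between knockout and control was not tested. RefSeq (GRCm38.p6) gave 9 windows for 8 members, each running from 250 bases before to 50 bases after an annotated start site. Each window was searched on both strands for GAS as TTCNNNGAA and for ISRE as GAAA, any pair of bases and GAAA again (TTTC and TTTC on the other strand). An ISRE match was found in 7 of the 9 windows, in 7 of the 8 genes, against 3.44% of all 32851 promoter windows. A GAS match was found in 4 of the 9 windows, against 8.3% of all windows. The windows of 60 bases around the ISRE match nearest the start site are given 5′ to 3′ along the gene, with ISRE and GAS matches in capitals.
Igtp: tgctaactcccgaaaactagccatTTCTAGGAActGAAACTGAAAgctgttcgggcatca
Irgm2: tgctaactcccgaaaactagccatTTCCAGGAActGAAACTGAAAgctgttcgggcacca
Irgm1: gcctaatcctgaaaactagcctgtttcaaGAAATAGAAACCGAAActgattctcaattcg
Gbp2: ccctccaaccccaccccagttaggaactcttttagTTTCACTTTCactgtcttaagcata
Gbp3: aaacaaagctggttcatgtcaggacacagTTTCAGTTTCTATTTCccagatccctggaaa
Gbp5: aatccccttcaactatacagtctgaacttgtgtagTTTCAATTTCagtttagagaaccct
Gbp7: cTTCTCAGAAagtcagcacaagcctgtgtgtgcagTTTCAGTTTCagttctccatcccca

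Read on either strand, the ISRE form GAAACTGAAA occurred in 4 members, Gbp3, Gbp7, Igtp and Irgm2. The Igtp stretch lies at chr11:58199487-58199546 and the Irgm2 stretch at chr11:58214878-58214937, both on the plus strand. In each, a GAS match stands directly before the ISRE match with a pair of bases between them. A local alignment of the Igtp and Irgm2 windows, which leaves out ends that do not align, had 244 identical bases. These were 90.4% of its 270 positions, gaps counted. The Irgm1 stretch, at chr11:48871420-48871479 on the minus strand, holds overlapping ISRE matches and no GAS match. The stretches of the GBP genes lie on the plus strand, at chr3:142620569-142620628 for Gbp2, chr3:142559970-142560029 for Gbp3, chr3:142496734-142496793 for Gbp5 and chr3:142530248-142530307 for Gbp7. In 6 of the 7 windows the ISRE match lay 24 to 64 bases before the start site, and in Gbp5 it lay 165 bases before it. The Ifi47 window and the second window of Gbp3 held no match, which says only that these letters are not in these windows. A match is a description of the sequence and shows no binding.

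**Figure D1:**
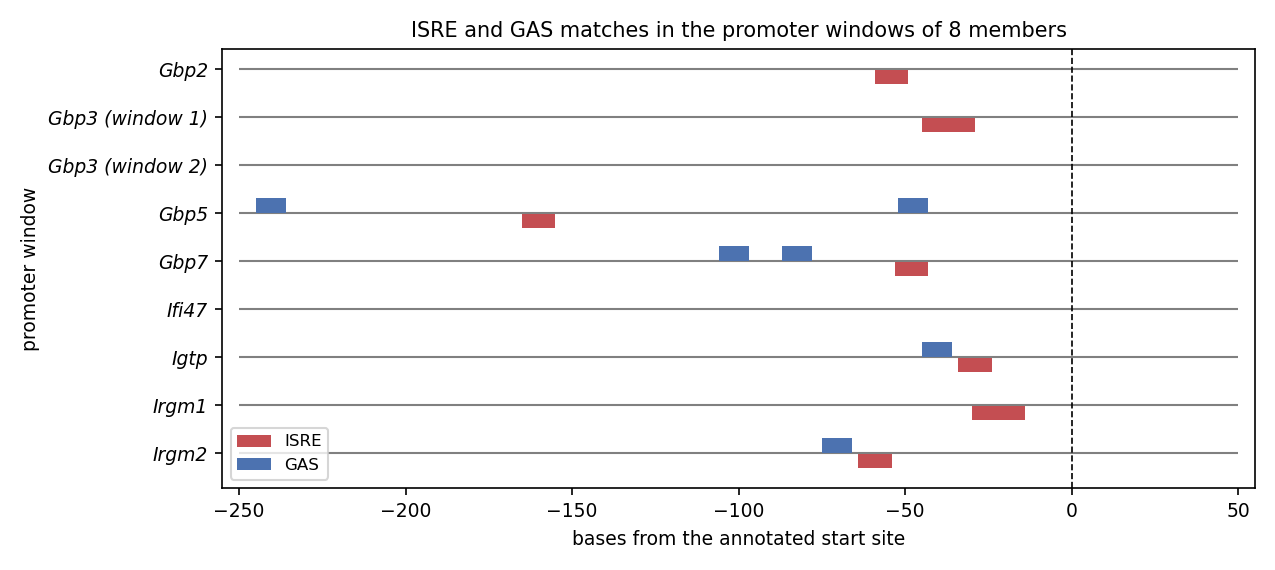
Positions of ISRE (red) and GAS (blue) matches in 9 RefSeq promoter windows of 8 members, drawn as bars along the distance from the annotated start site (dashed line) in bases. Outside Gbp5 the bars lie within 106 bases before the start site, and Ifi47 and the second Gbp3 window have none.

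The genes lie on 4 chromosomes, by the coordinates of the deposited table. Gbp2, Gbp3, Gbp5 and Gbp7 lie on chromosome 3, with Gbp2b between Gbp3 and Gbp2, from 142493978 to 142638008. Gbp9 lies on chromosome 5 (105077630 to 105110277, minus strand). Irgm1 (48861968 to 48871683, minus strand), Ifi47 (49076587 to 49096974), Igtp (58199556 to 58207591) and Irgm2 (58199618 to 58222782) lie on chromosome 11. Iigp1 lies on chromosome 18 (60376027 to 60392634). Igtp and Irgm2 overlap on the same strand, and Ifi47 overlaps Olfr56 on its own strand, so reads in the shared parts cannot be given to 1 gene with certainty. Of the distinct stretches of 100 bases in a member's transcripts, 0% to 10% also occurred in transcripts of another gene. The highest share, 10%, was in Gbp7, mostly shared with the pseudogene Gm43802, while Igtp shared 5.16% and Irgm2 3.01%, with each other.

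All 10 members stood higher in the knockout libraries than in the controls by the fitted fold change, and higher within number 1 and within number 3 alike. The IRG genes were separated in every case: the knockouts lay above both controls in 5 of 5 IRG members and in 2 of 5 GBP members, against 13.1% of all genes tested. The fitted difference ran from 1.33-fold in Gbp7 to 3.38-fold in Ifi47. No member passed the test across all genes (edgeR's quasi-likelihood test with Benjamini-Hochberg adjustment over 17260 genes, adjusted p = 1 for each). With 2 libraries per group that test called 0% of all genes (0 genes), while 391 genes, 2.27%, had an unadjusted p under 0.05.

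Among the regulatory GMS genes, Irgm1, whose protein guards the cell's own membranes from attack by the other IRGs, stood at 99.3 and 78.3 CPM in controls 1 and 3. In knockouts 1 and 3 it stood at 122 and 189 CPM (counts scaled to a common library size by the TMM method). Both knockouts lay above both controls, with knockout 3 the highest. The fitted log2 difference was 0.81 ± 0.28 (SE with n = 2 per group; by edgeR, unadjusted p = 0.0368), with 0.29 within number 1 and 1.27 within number 3.

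Irgm2, its paralogue, had CPM values of 78.6 and 70.2 in controls 1 and 3 and of 98.9 and 140.1 in knockouts 1 and 3. The fitted difference was 0.68 ± 0.22 (SE with n = 2 per group; by edgeR, unadjusted p = 0.0313), with 0.33 within number 1 and 1.00 within number 3. Igtp, the third GMS gene, had CPM values of 33.5 and 34.3 in controls 1 and 3 and of 46.6 and 60.9 in knockouts 1 and 3. The controls of Igtp nearly coincided and the groups did not overlap. The log2 fold change of Igtp was 0.67 ± 0.20 (SE with n = 2 per group; by edgeR, unadjusted p = 0.0230), the smallest standard error of the 10 members. Within the numbers Igtp differed by 0.47 and 0.83.

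The GKS genes had larger fitted values than the GMS genes, a difference that was not tested. Ifi47, an effector IRG recruited to vacuoles, had CPM values of 37.96 and 10.8 in controls 1 and 3 and of 66.5 and 98.1 in knockouts 1 and 3. Control 3 was the lowest library and knockout 3 the highest, so the 2 libraries numbered 3 lay 9.09-fold apart and those numbered 1 lay 1.75-fold apart. Over the 4 libraries the log2 difference was 1.76 ± 0.64 (SE with n = 2 per group; by edgeR, unadjusted p = 0.0457), with 0.81 within number 1 and 3.18 within number 3. Iigp1, which coats vacuoles of the parasite Toxoplasma, had CPM values of 5.56 and 7.99 in controls 1 and 3 and of 12.3 and 29.0 in knockouts 1 and 3. It was the least abundant IRG member, and the groups did not overlap. On the log2 scale the groups lay apart by 1.61 ± 0.49 (SE with n = 2 per group; by edgeR, unadjusted p = 0.0258), with 1.14 within number 1 and 1.86 within number 3.

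**Figure D2:**
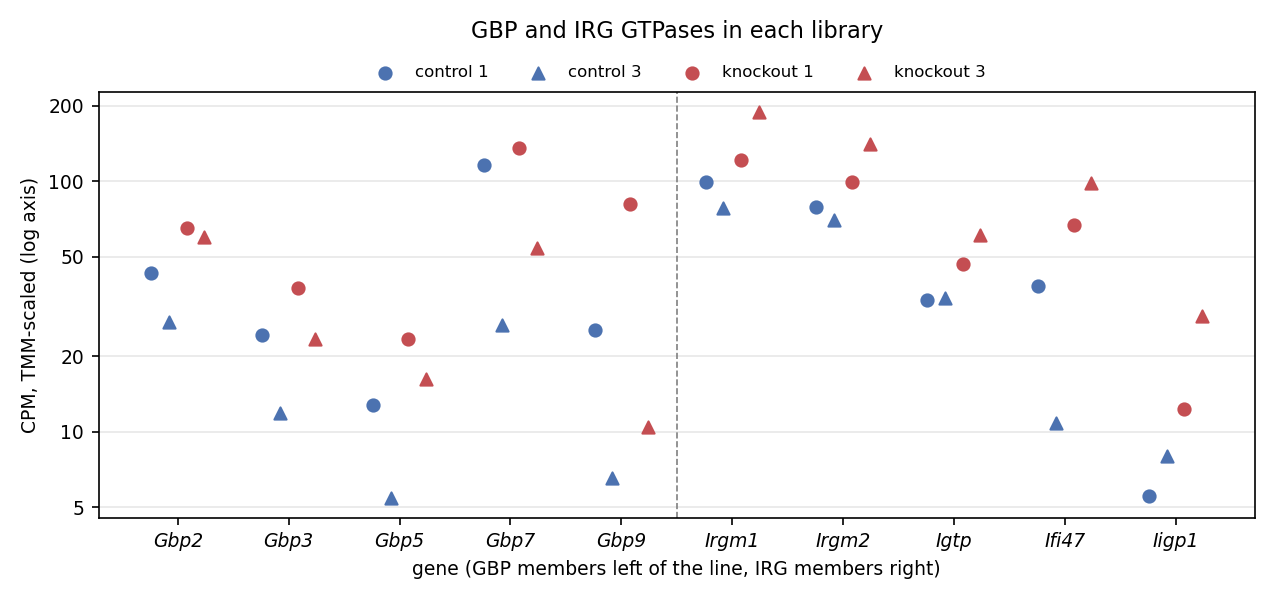
Level of each member in each library, in CPM on a log axis; circles are libraries numbered 1, triangles those numbered 3, blue controls and red knockouts. The red points lie above the blue ones for every IRG member and for Gbp2 and Gbp5, while in Gbp3, Gbp7 and Gbp9 control 1 lies above knockout 3.

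Of the GBP genes, Gbp2, a prenylated protein that attacks vacuoles and cytosolic bacteria, had CPM values of 42.9 and 27.3 in controls 1 and 3 and of 64.8 and 59.7 in knockouts 1 and 3. The knockouts were close together and both above the controls. The fitted log2 difference was 0.83 ± 0.26 (SE with n = 2 per group; by edgeR, unadjusted p = 0.0296), with 0.59 within number 1 and 1.13 within number 3. Gbp5, a prenylated protein linked to NLRP3 inflammasome assembly, had CPM values of 12.8 and 5.41 in controls 1 and 3 and of 23.4 and 16.3 in knockouts 1 and 3. The groups did not overlap. The log2 fold change of Gbp5 was 1.12 ± 0.49 (SE with n = 2 per group; by edgeR, unadjusted p = 0.0745), with 0.87 within number 1 and 1.58 within number 3.

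In the other 3 GBP genes the groups overlapped, each time because control 1 stood above knockout 3. Gbp3 had CPM values of 24.3 and 11.8 in controls 1 and 3 and of 37.6 and 23.5 in knockouts 1 and 3, a log2 fold change of 0.76 ± 0.44 (SE with n = 2 per group; by edgeR, unadjusted p = 0.155). Gbp7, linked to assembly of the phagocyte oxidase, had CPM values of 116 and 26.7 in controls 1 and 3 and of 135 and 54.0 in knockouts 1 and 3. The fitted difference was 0.41 ± 0.81 (SE with n = 2 per group; by edgeR, unadjusted p = 0.635), and the libraries numbered 1 were the 2 highest. Gbp9 had CPM values of 25.5 and 6.51 in controls 1 and 3 and of 81.2 and 10.4 in knockouts 1 and 3, so that knockout 1 stood far above the other 3 libraries. Over the 4 libraries the log2 difference was 1.52 ± 1.14 (SE with n = 2 per group; by edgeR, unadjusted p = 0.246). Within the numbers, Gbp3 differed by 0.63 and 0.99, Gbp7 by 0.23 and 1.02, and Gbp9 by 1.67 and 0.68 on the log2 scale, number 1 first. Without knockout 1, Gbp7 turned to -0.38 and Gbp9 to -0.60, and without control 3 Gbp7 turned to -0.29.

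**Figure D3:**
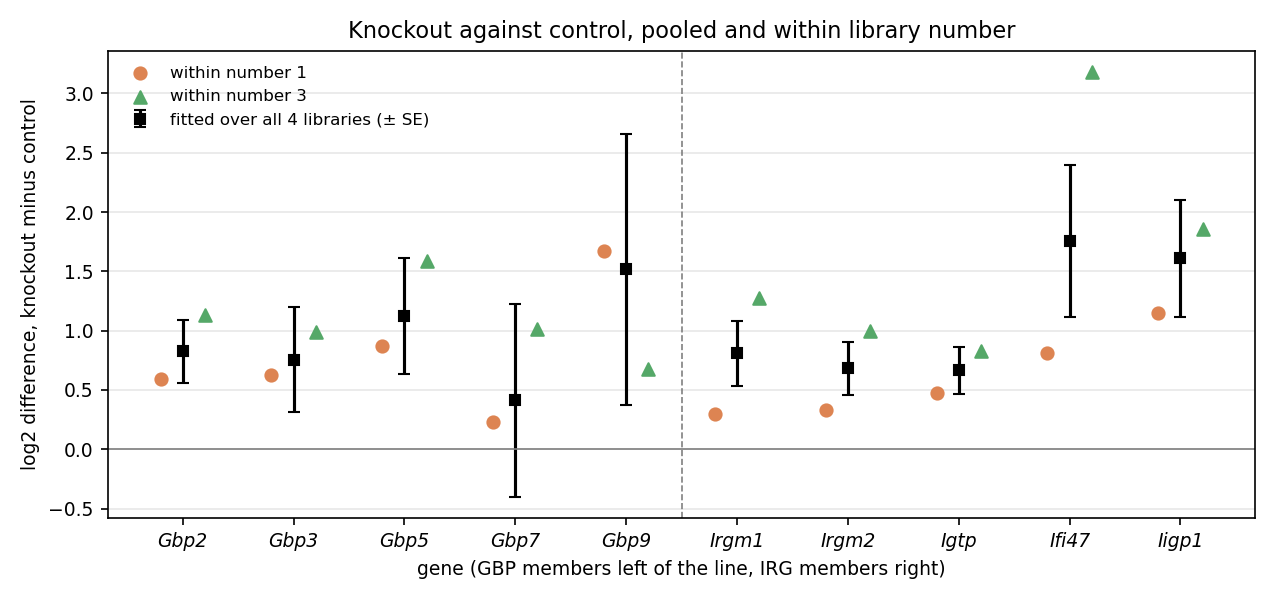
Knockout minus control on the log2 scale for each member: black squares are the edgeR fold change over the 4 libraries with its standard error, circles the difference within number 1 and triangles that within number 3. Every circle and triangle lies above 0, and the triangle lies above the circle in each member except Gbp9.

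As a list, the members had a median log2 fold change of 0.82, where the median of all 17260 tested genes was -0.00. Taken by number, that median was 0.61 for the libraries numbered 1 and 1.07 for those numbered 3. The difference was positive within number 1 and larger within number 3 in 9 of the 10 genes, against 14.2% of all genes. A fold change above 0 was seen in 10 of 10 members, against 49.8% of all tested genes, and a positive difference within both numbers in 10 of 10, against 25.8%. The knockouts lay above both controls for 7 of 10, against 13.1% of all genes, and below them for 0 of 10, against 13.4%. An unadjusted edgeR p under 0.05 with a higher level in the knockouts was found for 6 of 10, the 5 IRG members and Gbp2, against 1.3% of all genes. That count was lower whenever 1 library was left out, and the median was 1.38 without control 1. DESeq2, which called 0.416% of the genes it tested and 0.236% as higher in the knockouts, called 0 of the 10 members (smallest adjusted p = 0.218, in Iigp1), with 7 of the 10 at an unadjusted p under 0.05 and higher, against 1.23%. With replicate number, which coincided with sex, as a term of the fit, DESeq2 called 4 of the 10 higher, Gbp2, Gbp5, Gbp9 and Iigp1, against 0.67% of the genes it tested, and edgeR called 0 of 10. The labels used here do not give the sex of the mice, but the libraries of each group differed in sex. The spread within each group therefore holds sex together with any other difference between mice. In bulk RNA, a higher share of cells that express these genes and more RNA per cell cannot be told apart.

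The 2 families were also compared between the libraries of 1 genotype. Every GBP member was lower in number 3 than in number 1, in the controls (median log2 difference -1.24, 5 of 5 genes) and in the knockouts (median -0.68, 5 of 5). Among the IRG members the median was -0.16 in the controls, with 3 of 5 lower in number 3, and 0.56 in the knockouts, with 0 of 5 lower. The further GBP genes did not all share this: Gbp6 differed by -0.76 in the controls and by 0.28 in the knockouts, and Gbp10 by -0.63 and 0.89. Among the GBP and IRG members, the largest such differences were in Gbp7, at -2.11 in the controls, and in Gbp9, at -2.96 in the knockouts. Over all tested genes the medians were near 0 (-0.0001 in the controls and 0.0021 in the knockouts). The share of all genes lower in number 3 by any amount, as the members are counted above, was not counted. More than 2-fold lower in number 3 were 10.2% of all genes in the controls and 11.4% in the knockouts. Among the members, Gbp3, Gbp5, Gbp7, Gbp9 and Ifi47 passed that limit in the controls, and Gbp7 and Gbp9 in the knockouts. Number coincided with sex: Ddx3y, a gene of the Y chromosome, had 72.1 and 89.1 CPM in control 1 and knockout 1 and 0.307 and 0.139 CPM in control 3 and knockout 3. With 1 library per genotype and number, the difference between numbers cannot be told apart from sex and was not tested.

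**Figure D4:**
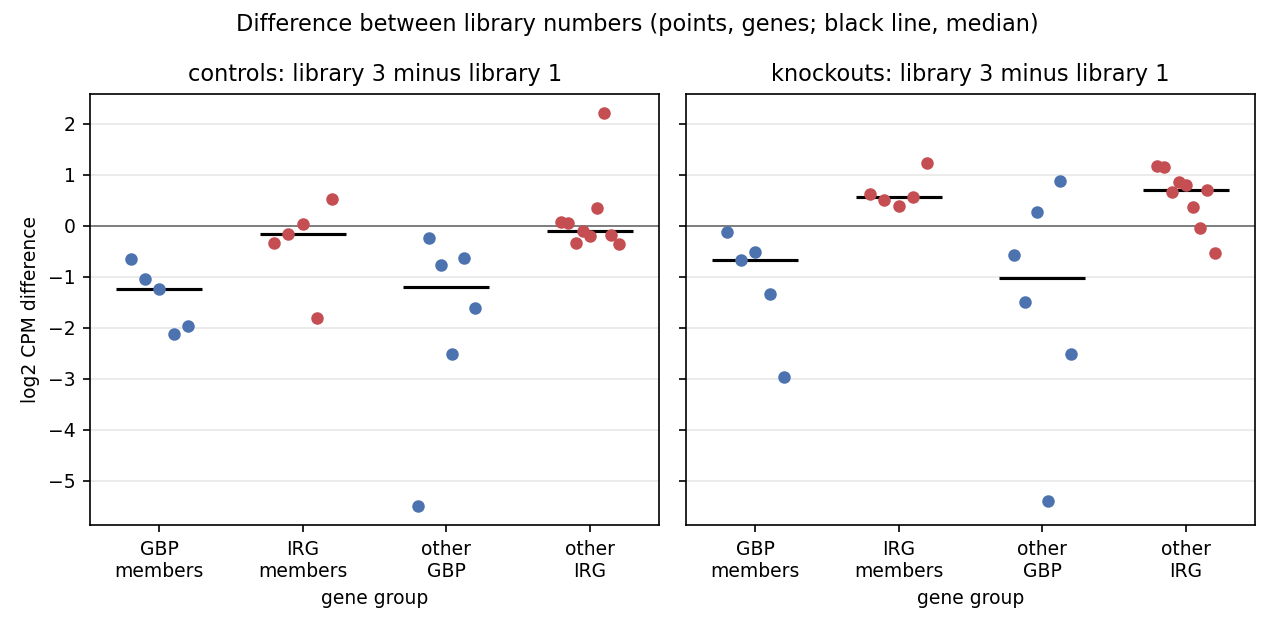
Library 3 minus library 1 in log2 CPM, in controls (left) and knockouts (right), for GBP (blue) and IRG (red) members and for the remaining tested genes of both families; points are genes and black lines medians. The GBP members lie below 0 in both panels, and the IRG members lie above 0 in the knockouts.

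Levels per transcript length were compared with the deposited FPKM values (read fragments scaled by transcript length and depth). Irgm2 stood highest in both controls, at 18.97 and 17.4 FPKM, and Iigp1, at 0.85 and 1.25 FPKM, and Gbp5, at 1.71 and 0.741 FPKM, stood lowest. In both knockouts Ifi47 stood highest, at 24.2 and 35.4 FPKM, against 13.7 and 3.97 FPKM in the controls, where it ranked sixth. By the control means the order was Irgm2, Igtp, Irgm1, Gbp2, Gbp7, Ifi47, Gbp3, Gbp9, Gbp5 and Iigp1. Of the 9 pairs of neighbours in that order, the libraries overlapped in 8, the exception being Irgm2 above Igtp. By the knockout means the order was Ifi47, Irgm2, Irgm1, Igtp, Gbp2, Gbp7, Gbp3, Gbp9, Iigp1 and Gbp5, and all 9 pairs of neighbours overlapped. Summed over the 10 members, the level was 109.7 and 69.7 FPKM in the controls and 162 and 169.8 FPKM in the knockouts.

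The remaining genes of both families were taken whole, whatever their values. Of 6 further GBP genes in the table, 6 had a fold change above 0, against 49.8% of all tested genes. The knockouts lay above both controls for 3 of the 6, against 13.1% of all tested genes. The median of the 6 was 1.22 on the log2 scale. Gbp6 was the most abundant of them, with CPM values of 20.05 and 11.8 in controls 1 and 3 and of 29.8 and 36.1 in knockouts 1 and 3, with a log2 fold change of 1.05 ± 0.32 (SE with n = 2 per group; by edgeR, unadjusted p = 0.0253). Gbp10 stood at 1.62 and 1.03 CPM against 2.26 and 4.19 CPM, and Gbp4 at 1.42 and 1.19 CPM against 4.72 and 1.67 CPM. Gbp2b had CPM values of 1.36 and 0 in controls 1 and 3 and of 1.81 and 1.21 in knockouts 1 and 3; the count of 0 in control 3 allows a level of up to 0.194 CPM (12 counts, about 3 read pairs). Gbp8 stood at 0.515, 0.0646, 3.42 and 0.0505 CPM and Gbp11 at 1.60, 0.501, 2.02 and 0.328 CPM in control 1, control 3, knockout 1 and knockout 3. These 2 genes stood higher in the knockout within number 1 and lower within number 3, where Gbp8 was under the level of 12 counts. Gbp6 and Gbp10 share 64.5% and 73.5% of their stretches of 100 bases with other genes, mainly Gm43302, so their counts are uncertain.

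Of 9 further IRG genes tested, 8 had a fold change above 0, against 49.8% of all tested genes. Both knockouts lay above both controls for the same number of genes, against 13.1% of all tested genes. The median log2 fold change of the 9 was 1.12. Gm12250, which encodes the effector Irgb10, had CPM values of 17.2 and 13.6 in controls 1 and 3 and of 26.4 and 41.7 in knockouts 1 and 3. It had a log2 fold change of 1.15 ± 0.30 (SE with n = 2 per group; by edgeR, unadjusted p = 0.0148), and shared no stretch of 100 bases with another gene. Gm4951 had 12.1 and 11.3 CPM in controls and 21.4 and 39.0 in knockouts, which gave 1.37 ± 0.34 (SE with n = 2 per group; by edgeR, unadjusted p = 0.0127). The effector genes Tgtp1 and Tgtp2 had log2 fold changes of 1.71 and 1.42, but share 73.1% and 76.8% of their stretches, almost all with each other. Gm5431, F830016B08Rik, 9930111J21Rik1 and 9930111J21Rik2 had log2 fold changes of 0.66, 0.67, 0.40 and 1.12. Of these, 9930111J21Rik1 and 9930111J21Rik2 share 70.5% and 48.3% of their stretches, so their split is uncertain. Irgq, a family member not known for interferon induction, was the exception, with CPM values of 33.5 and 26.1 in controls 1 and 3 and of 32.6 and 22.5 in knockouts 1 and 3. Irgc1 had too few counts to test, at most 0.147 CPM.

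Other interferon-inducible GTPases stood higher too. Mx1, a gene of the dynamin-like GTPases, had CPM values of 10.9 and 13.5 in controls 1 and 3 and of 29.3 and 47.0 in knockouts 1 and 3. By edgeR the groups lay apart by 1.65 ± 0.31 on the log2 scale (SE with n = 2 per group, unadjusted p = 0.00399, adjusted p = 1). DESeq2, a separate fit, gave Mx1 an adjusted p of 0.00245. Mx2 stood at 8.01 and 8.74 CPM against 15.8 and 22.3 CPM. Gvin1, a giant GTPase, stood at 140.0 and 134 CPM against 208 and 339 CPM, and shares 97.8% of its stretches, almost all with Gm4070, whose levels were 136 and 137 against 197 and 336 CPM. For these 4 genes both knockouts lay above both controls, against 13.1% of all tested genes, and the median log2 fold change was 1.09. The IFIT genes, antiviral RNA-binding proteins induced mainly by type I interferon, had both knockouts above both controls in 6 of 6, against 13.1%, and a median of 1.69. DESeq2 called 5 of the 6 higher (adjusted p = 8.50e-04 for Ifit1), against 0.236% of the genes it tested. Whether the IFIT median differs from that of the GBP and IRG members was not tested.

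The interferon gamma pathway itself, in a list of 12 genes, had 8 above 0 and 4 below. The median was 0.13 on the log2 scale, and 0 genes passed edgeR or DESeq2. Ifng, the ligand, was hardly detected, at 0, 0.339, 0.368 and 0.152 CPM in control 1, control 3, knockout 1 and knockout 3, where 12 counts give 0.152 to 0.221 CPM. The receptor chain genes did not separate: Ifngr1 had CPM values of 122 and 113 in controls 1 and 3 and of 85.4 and 133 in knockouts 1 and 3. Ifngr2 stood at 192 and 223 CPM against 187 and 254 CPM. The kinase gene Jak1 stood at 371 and 369 CPM against 353 and 393 CPM, and Jak2 at 145 and 105 CPM against 142 and 168 CPM.

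Irf1, an interferon-induced factor that acts on many of these promoters, had CPM values of 82.1 and 78.96 in controls 1 and 3 and of 86.4 and 102 in knockouts 1 and 3, a log2 fold change of 0.22 ± 0.16 (SE with n = 2 per group). Socs1, the feedback inhibitor of JAK kinases, had CPM values of 6.26 and 1.39 in controls 1 and 3 and of 0.208 and 1.17 in knockouts 1 and 3. Both knockouts of Socs1 lay below both controls (log2 fold change -2.46 ± 1.14, SE with n = 2 per group; by edgeR, unadjusted p = 0.0893), with -4.72 within number 1 and -0.24 within number 3. Socs1 had only 13 counts in knockout 1, where 12 counts give 0.192 CPM. The difference within number 1 and the fitted one are therefore uncertain. Nlrc5, the transactivator of MHC class I, stood at 76.5 and 61.2 CPM against 84.2 and 97.5 CPM. Ciita, that of MHC class II, stood at 9.85 and 3.52 CPM against 9.44 and 3.39 CPM. Of 15 tested further genes that respond to interferon gamma, 14 had a fold change above 0 and 7 had both knockouts above both controls, with a median of 0.33. The chemokine gene Cxcl10 had CPM values of 3.26 and 2.47 in controls 1 and 3 and of 7.07 and 10.2 in knockouts 1 and 3 (by DESeq2, adjusted p = 0.0393, edgeR adjusted p = 1). Cxcl9, a related chemokine gene, stood at 0.295 and 0.484 CPM against 0.800 and 2.83 CPM.

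Of the type I interferon pathway, 8 of 10 listed genes were tested, with 6 above 0, against 49.8% of all tested genes, and a median of 0.24. The knockouts lay above both controls in 3 of the 8, against 13.1% of all tested genes. These were Stat2, Irf7 and Usp18, named after their values were seen. Stat2, a subunit of ISGF3, had a log2 fold change of 0.88, and Irf7, a factor that amplifies type I interferon, one of 0.75. Usp18, which restrains type I interferon signalling, had one of 0.99. In 2 of the 3, Stat2 and Usp18, the unadjusted edgeR p was under 0.05 (0.0243 and 0.00575). The ligand gene Ifnb1 had a count of 0 in all 4 libraries, which allows up to 0.152 to 0.221 CPM. Irf9, the DNA-binding subunit of ISGF3, had CPM values of 66.2 and 72.7 in controls 1 and 3 and of 55.4 and 68.9 in knockouts 1 and 3. The genes that act with the GTPases were described as well. Of 10 ATG8 conjugation genes, which place GBPs and IRGs on vacuoles, 3 were above 0 and 7 below, with a median of -0.12, and Gabarapl2 stood at 41.7 and 42.0 CPM against 38.0 and 37.0 CPM. Of 6 inflammasome genes that act after GBPs, 3 were above 0 and 3 below, with a median of 0.02. In these, Casp4, the mouse caspase-11 gene, stood at 39.4 and 32.2 CPM against 30.6 and 36.1 CPM, and the DNA sensor gene Aim2 at 31.5 and 30.6 CPM against 26.01 and 35.1 CPM.

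The genes most like the members in pattern were sought among the other 17250 tested genes, by the root mean square difference from the members' mean profile of centred log2 CPM over the 4 libraries. The 5 closest were Eif3s6-ps1 (0.0282), Lipt1 (0.0290), Mtus2 (0.0872), Gm31645 (0.0876) and Wnt6 (0.0881). Lipt1, a lipoyltransferase, had CPM values of 2.10 and 1.18 in controls 1 and 3 and of 3.44 and 3.04 in knockouts 1 and 3. All 5 were low: none exceeded 3.44 CPM in any library, and Eif3s6-ps1 is a pseudogene at 0.0807 to 0.320 CPM. With 4 libraries, many genes can lie near any profile.

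The libraries held 55100415 to 79209870 counts and 20650 to 20986 genes with a count, and mitochondrial genes took 3.15% to 4.09% of the counts. Mettl3 had CPM values of 18.3 and 23.2 in controls 1 and 3 and of 13.9 and 19.6 in knockouts 1 and 3, so the groups overlapped (log2 fold change -0.31 ± 0.27, SE with n = 2 per group). The count covers the whole gene and the labels name no deleted exon, so it does not check the labels. The 10 macrophage markers were all detected, at summed levels of 40796 and 55576 CPM in the controls and 42796 and 44063 CPM in the knockouts. Of 11 epithelial tumour markers, 7 were at 0 in all libraries, among them Epcam, Krt8 and Krt18, and the sum was 0.460 to 1.52 CPM. Of 12 T and NK cell markers, Cd3e, Cd8a, Cd8b1 and Prf1 were at 0 and the sum was 17.5 to 25.0 CPM, nearly all from Cd4. Klrb1c, an NK cell marker named after its values were seen, had counts of 0 and 0 in the controls and of 31 and 16 in the knockouts (by edgeR, unadjusted p = 0.0153). The listed markers Ncr1, Nkg7 and Gzmb did not share this. In control 1, control 3, knockout 1 and knockout 3, Ncr1 had counts of 8, 0, 0 and 8. Nkg7 had counts of 0, 9, 0 and 0, and Gzmb of 14, 0, 4 and 0. The 9 fibroblast markers summed to 429 and 814 CPM in the controls and to 336 and 505 CPM in the knockouts, so they were lower in the knockout within each number, and none of the 9 was at 0 in all 4 libraries. The 8 neutrophil markers summed to 14.8 and 18.7 CPM against 19.6 and 26.5 CPM, with Ly6g and Retnlg at 0. The 9 dendritic and B cell markers summed to 7.84 and 5.62 CPM against 13.0 and 6.14 CPM. The part of the fibroblast, neutrophil and NK cell markers in the GTPase differences was not tested.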

How the data were processed

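Poly(A) RNA of 4 macrophage libraries was sequenced as strand-marked pairs of 150 bases, per the labels' protocols. The submitters' processing notes list cutadapt 1.9, HISAT2 2.0.4, StringTie 1.3.4d, edgeR and DESeq2, with no roles. The genome build and the use of strand in counting are not given in the sources used here. Per the file headers, each gene in the deposited table has, for each library, estimated counts and FPKM. The estimated counts were whole numbers, so rounding changed none; of counts from 1 to 24, 39.1% were multiples of 4, so 1 read pair may give about 4 counts, and floors of 12 counts cover counting error only. A further 4 columns matched no sample and were not used. GENCODE M21 (GRCm38) held 55141 of the gene identifiers, and 94.2% of these had equal start and end there.

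The design had set edgeR 4.0.16 (R 4.3.3; TMM, filterByExpr, quasi-likelihood, two-sided) on genotype alone, and called genes at a Benjamini-Hochberg adjusted p under 0.05. The SE is the fold change divided by the root of its F value. Differences within a number used log2 CPM with a prior count of 2 and have no test. Alternatives used DESeq2 1.42.0, limma 3.58.1 on log2 of the authors' deposited FPKM plus 1 or 0.1, other scalings and filters, a replicate block, and each library left out. The count of members at an unadjusted p under 0.05 was added as a result after the data were seen. The scripts were tested on simulated data. The members, lists, motifs and tests were chosen with earlier results of these data known. Genes were named by a rule: all members and further family genes, a set of pathway genes whatever they did, the 5 closest in pattern, and checks. No list test was run. Some genes of the lists are not reported here.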

Additional observations from a re-analysis of the deposited data

Results flagged for a closer look

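Of 48 named genes that were tested, 10 differed between knockout and control in opposite directions within number 1 and within number 3. The difference between the numbers was not tested, since each holds 1 library per genotype. Among all tested genes, 47.0% had opposite signs. None of the 10 GBP and IRG members was among them. The values are the log2 difference within number 3 minus that within number 1. In the family genes Gbp8 and Gbp11 it was -2.89 and -0.89. In the interferon gamma pathway it was -4.70 for Ifng, whose counts were near the floor, 0.75 for Ifngr1, 0.22 for Ifngr2, 0.16 for Jak1 and 0.70 for Jak2. In the inflammasome genes it was 0.53 for Casp4 and 0.47 for Aim2, and for Lyz2, which encodes lysozyme, it was -0.87.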

How the results depend on the processing

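edgeR called 0 of all genes under each alternative of scaling, filter, divisor, replicate block and left-out library, and limma called 0, while DESeq2 called 74, and 175 with the replicate block. With the replicate block, DESeq2 called 4 members higher, Gbp2, Gbp5, Gbp9 and Iigp1 (adjusted p = 0.0322, 0.0206, 0.00708 and 9.79e-04), against 0.67% of the genes it tested, and edgeR called 0. All 10 members had an unadjusted p under 0.05 with the block, by edgeR, DESeq2 and limma alike, where 6 had one by edgeR and 7 by DESeq2 without it. The share of all tested genes at that threshold with the block was not counted, so the count of members has no background. Control 1 and knockout 1 deviated together from their group means (r = 0.42 over 17260 genes); with 2 libraries per group the libraries numbered 3 mirror this and add nothing. Number coincided with sex, and the labels do not tie it to a litter or day. Leaving out 1 library gave a median log2 fold change of the members of 0.64 to 1.38 (1.38 without control 1). Fewer members then had an unadjusted p under 0.05 than in the fit of all 4 libraries. The single library of a group is then assumed to vary like the other group, and genotype mixes with number. The median was 0.74 to 0.84 under all other alternatives. Among single genes, Gbp11 turned to -0.11 and -0.12 with the replicate block (edgeR and DESeq2), and Jak1 lay at -0.000116 and -0.000150 by limma on FPKM.

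Some fold changes turned when 1 library was left out, with ranges of -0.38 to 1.83 for Gbp7 and -0.60 to 2.82 for Gbp9. For the further genes the ranges were -2.45 to 4.71 for Gbp8, -1.65 to 1.22 for Gbp11, -0.39 to 0.13 for Irgq, -0.38 to 7.09 for Ifng, -0.46 to 0.19 for Ifngr1, -0.16 to 0.31 for Ifngr2, -0.070 to 0.103 for Jak1, -0.96 to 0.87 for Ciita, -0.33 to 0.0042 for Irf9, -0.24 to 0.060 for Casp4, -0.25 to 0.19 for Aim2 and -0.66 to 0.22 for Lyz2. The cause was not tested.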

Other observations

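GGACT is the form of the consensus in which the METTL3 complex often methylates adenosine. In the longest GENCODE M21 coding transcript of each gene, the 10 members had a median of 1.101 GGACT per kilobase, and 13307 tested genes with a coding transcript had a median of 1.05. Irgm1 had 7 in 2259 bases, or 3.10 per kilobase, a density at the percentile 98.2 of those genes. Igtp had 1.98 per kilobase, Gbp3 1.86 and Ifi47 1.69, while Gbp9 had 0.685 and Gbp5 0.655. These are counts of letters in reference transcripts, and methylation was not measured in these libraries.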
